A study of Homo sapiens with 12 samples.

Results

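The comparison described here set 3 libraries of MV-4-11 cells treated with HPA-12 alone against 3 libraries of the same cells given DMSO. They are 6 of the 12 libraries of a study that crossed HPA-12 with crenolanib, a FLT3 kinase inhibitor, and the other 6 libraries, 3 with crenolanib and 3 with both compounds, entered 1 alternative fit and are otherwise given only as values of single genes and of a pair of lists. The members are these 6 libraries, and the genes compared are those with at least 1 FPKM (fragments per kilobase of gene, scaled to library depth) in at least 3 of them, which held for 10413 of the 20036 genes in the deposited table.

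MV-4-11 is a human acute myeloid leukaemia line with an activating FLT3 mutation and a KMT2A fusion. The labels give its tissue as bone marrow, its genotype as WT and the same entries for both groups, and the medium of both held serum and antibiotics. The treated group received (1R,3S)-HPA-12 for 48 h, the time the series description states. It gives no time for the DMSO group, and no dose is given in the sources used here. The libraries of each group are numbered 1 to 3, without a statement that each is its own culture. All p-values therefore describe library-to-library spread alone, and that spread may be only technical.

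HPA-12 is a ceramide analogue that inhibits CERT, the carrier protein that takes ceramide from the endoplasmic reticulum to the Golgi apparatus, where it is turned into sphingomyelin. With CERT blocked, ceramide can build up in the endoplasmic reticulum, whose folding stress is read by the sensors ATF6, IRE1 and PERK and answered by chaperones such as HSPA5 (GRP78) and by the factor DDIT3 (CHOP). The series title names GRP78, ATF6 and CHOP, so their transcripts are among those given below. HPA-12 acts on a protein, so the level of the CERT transcript does not check whether the inhibitor worked.

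Sequencing depth is unknown: at the best-fitting depth only 11 to 12.6% of the low values came out as whole reads within 0.01 read. The 13 mitochondrially encoded genes held 19.6 to 20% of the FPKM sum with DMSO and 21.1 to 22.1% with HPA-12. Of the genes in the table, 5137 to 5217 were listed at 0 in the DMSO libraries and 4792 to 4864 in the HPA-12 libraries. Across genes, which are not independent replicates, log2 values of libraries correlated at 0.996 to 0.997 within DMSO, 0.992 to 0.996 within HPA-12 and 0.861 to 0.877 between the groups, and 95.3% of the variance lay on 1 principal component, along which the groups were apart. All 10 markers of the line (CD33, FLT3, MPO, PTPRC, SPI1, CSF3R, CEBPA, ITGAM, HOXA9 and MEIS1) were expressed at the level required for testing. None of the 5 fibroblast and 5 endothelial markers reached it, while 1 of 5 T cell, 2 of 5 B cell, 4 of 6 erythroid and 2 of 5 epithelial markers did. Nothing measured in these libraries checks that the cells met HPA-12.

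The labels of the treated groups could not be checked from these files, and HPA-12 below means the libraries that carry that label, so every direction given here rests on it. Crenolanib inhibits FLT3, whose signal induces feedback genes of the MAPK pathway and targets of STAT5. Of 16 tested MAPK feedback genes 12 were lower in every HPA-12 library than in every crenolanib library and 1 was higher. Of 20 genes of the JAK-STAT list 11 were lower and 7 higher. Against DMSO, the MAPK counts were 10 and 6 with HPA-12 and 9 and 7 with crenolanib. Those of the JAK-STAT list were 10 and 8, and 6 and 10. For HPA-12 against both compounds they were 6 and 6 (MAPK) and 5 and 11 (JAK-STAT). The share of all genes apart in this way was counted only for HPA-12 against DMSO, where it was 81.4%. In that comparison 16 of the 16 MAPK genes and 18 of the 20 JAK-STAT genes were apart. The counts between the other groups have no such background, so they cannot be set against the rest of the genes. DUSP6, a phosphatase of ERK, stood at 18.6 to 19.4 FPKM with DMSO, 5.59 to 5.84 FPKM with HPA-12, 9.24 to 10.9 FPKM with crenolanib and 4.56 to 7.56 FPKM with both. MYC stood at 155 to 159.8 FPKM with DMSO, 6.62 to 7.03 FPKM with HPA-12, 32.3 to 38.5 FPKM with crenolanib and 17.5 to 18.1 FPKM with both, so it was low in all treated groups. MPO was low with HPA-12 alone, at 15.2 to 16.4 FPKM, against 389 to 392 FPKM with DMSO, 342 to 349 FPKM with crenolanib and 417 to 446.0 FPKM with both. PIM1, a kinase gene, stood at 40.7 to 41.8 FPKM with DMSO, 9.75 to 10.9 FPKM with HPA-12, 30.2 to 32.9 FPKM with crenolanib and 42.3 to 58.1 FPKM with both. These 4 genes were picked after their values were seen. An exchange of labels and a response to HPA-12 itself cannot be told apart with these values.

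The difference between the groups reached most of the transcriptome. By limma on log2 values of FPKM plus 1, with Benjamini-Hochberg adjustment over the 10413 genes and a threshold of 0.05, 4580 genes rose (44.0%) and 3746 fell (36.0%). The values of the groups did not overlap for 8474 genes (81.4%). These shares are the background for every count below, and a list of genes of which 44.0% rose and 36.0% fell would be no different from the rest. A stricter rule, a change of more than 1 on the log2 scale (2 times on FPKM plus 1), took 842 genes that rose (8.09%) and 1061 that fell (10.2%). Changes of more than 2 log2 units were found for 91 genes that rose and 193 that fell. The median over all genes tested was 0.09 log2 units, with quartiles at -0.43 and 0.52.

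The balance between rises and falls turned with the scaling. With median-ratio scaling 3896 genes rose and 4367 fell, so falls outnumbered rises, and with equal sums 4969 rose and 3395 fell. With the spread taken over all 12 libraries of the study 3061 rose and 2563 fell. With every library scaled up to the same sum before 1 was added, 1478 genes rose and 1200 fell by more than 1 log2 unit. With median-ratio scaling, which puts the middle gene near 0, 633 rose and 1290 fell by that much. A pseudocount of 0.1 in place of 1 gave 1402 and 1397, and a test against a change of 1 log2 unit itself gave 438 and 715. The median over all genes, 0.09 as deposited, was 0.17 with equal sums and -0.03 with median-ratio scaling. The genes that rose by more than 1 log2 unit had median levels of 2.79 FPKM with DMSO and 9.32 FPKM with HPA-12, and those that fell by more than 1 had 16.7 and 4.68 FPKM. The change itself defines these classes, so their levels are only a description.

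**Figure D1:**
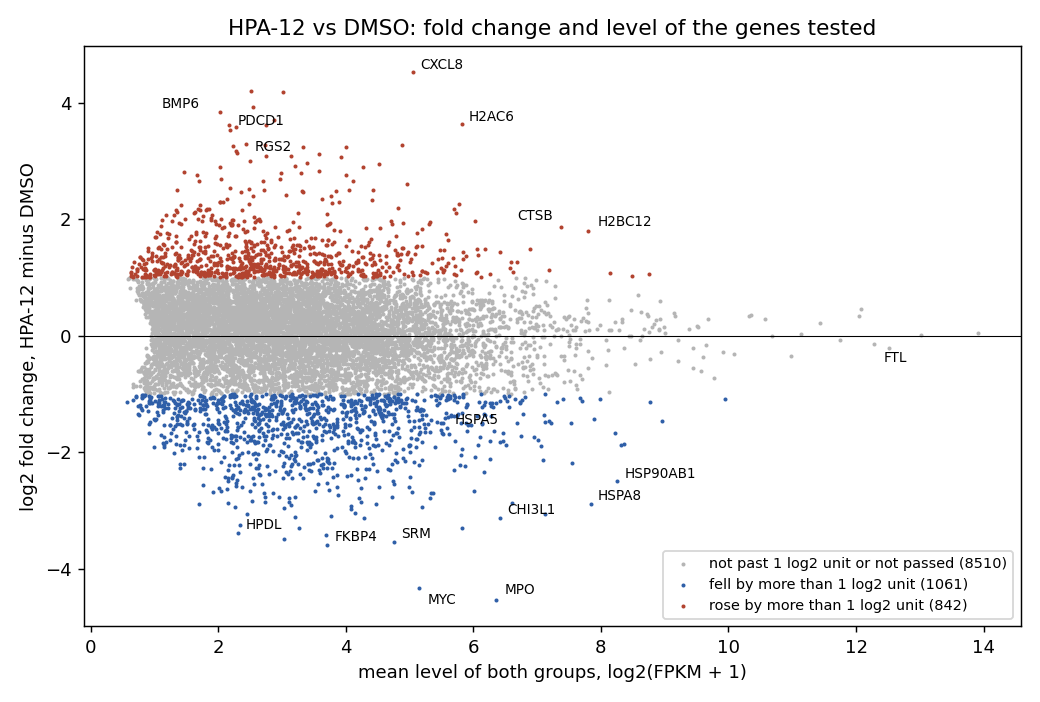
Log2 fold change (HPA-12 minus DMSO, vertical) against the mean log2 level of both groups (horizontal), 1 point per gene tested. Blue points are the 1061 genes that fell and red points the 842 that rose by more than 1 log2 unit; MPO and MYC lie lowest and CXCL8 highest among the genes labelled.

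Among genes averaging 5 FPKM or more, MPO fell most (ENSG00000005381); it encodes myeloperoxidase, which makes hypochlorous acid in neutrophil granules. It stood at 390.0, 389 and 392 FPKM with DMSO and at 16.4, 15.2 and 16.2 FPKM with HPA-12. MYC (ENSG00000136997), the transcription factor of cell growth, stood at 159.8, 158 and 155 FPKM with DMSO and 6.62, 7.0 and 7.03 FPKM with HPA-12. In both genes the lowest DMSO library lay more than 20 times above the highest HPA-12 library, and the log2 fold changes were -4.53 ± 0.05 (adjusted p = 1.3e-15) and -4.33 ± 0.05 (adjusted p = 2.1e-15). In bulk RNA, fewer cells that express a gene and less of its RNA per cell cannot be told apart.

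Another 10 falls complete the 12 largest, which were chosen among genes without overlap between the groups. FKBP4, a co-chaperone of HSP90, went from 44.4 ± 0.587 to 2.79 ± 0.203 FPKM (mean ± SD, n = 3 libraries each) and SRM, which makes spermidine, from 91.4 ± 3.27 to 6.96 ± 0.585 FPKM, changes of -3.58 ± 0.06 and -3.54 ± 0.06. PYCR1, the last enzyme of proline synthesis, stood at 30.4, 28.5 and 28.4 FPKM with DMSO and 2.06, 1.52 and 2.66 FPKM with HPA-12 (-3.30 ± 0.11). DNPH1, a hydrolase of nucleotides, fell by 3.48 and HPDL, a mitochondrial protein related to hydroxyphenylpyruvate dioxygenase, by 3.38 on the log2 scale. SLC39A14, an importer of zinc and iron, went from 41.4 ± 1.68 to 2.94 ± 0.0959 FPKM (-3.42 ± 0.06). PODXL2, a sialomucin that binds selectins, fell from 185, 168 and 175 FPKM to 18.5, 16.1 and 16.6 FPKM (-3.29 ± 0.06). CCDC86 and MYBBP1A, both nucleolar proteins, changed by -3.24 ± 0.09 and -3.13 ± 0.07. CHI3L1, a secreted protein of the chitinase family, went from 251, 247 and 255 FPKM to 27.8, 27 and 28.9 FPKM (-3.12 ± 0.04), so it stayed well expressed after its fall.

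The largest rise by the same rule was that of CXCL8 (ENSG00000169429), the chemokine that attracts neutrophils. It stood at 6.53, 5.55 and 5.57 FPKM with DMSO and at 131, 179.5 and 163 FPKM with HPA-12 (4.52 ± 0.10, adjusted p = 5.7e-13). All 3 HPA-12 libraries were high, and they spread more than the DMSO libraries did. CXCL3, a related chemokine, rose from 0.338, 0.432 and 0.425 FPKM to 16.4, 15.1 and 16 FPKM (3.59 ± 0.08). BMP6, a secreted ligand of the bone morphogenetic protein family, had 0.0496, 0.175 and 0 FPKM with DMSO and 13.9, 14.6 and 14.6 FPKM with HPA-12. PDCD1, the inhibitory receptor PD-1 best known from T cells, had 0.119, 0.422 and 0.311 FPKM with DMSO and 14.1, 14.6 and 15.3 FPKM with HPA-12. Both were thus near 0 in every DMSO library and near 15 FPKM in every HPA-12 library, and their fitted changes, 3.84 ± 0.09 and 3.62 ± 0.10, depend on the pseudocount. CRLF2, a chain of the receptor for the cytokine TSLP, rose from 0.505, 0.855 and 1.43 FPKM to 19.6, 21.2 and 25.8 FPKM, and RGS2, a brake on G protein signals, from 0.779, 0.706 and 0.694 FPKM to 15.9, 15.3 and 16.7 FPKM. The remaining 6 of the 12 largest rises were the histone genes H2BC8, H4C4, H2BC7, H2AC13, H2AC6 and H2BC6, with changes between 3.53 and 4.19.

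**Figure D2:**
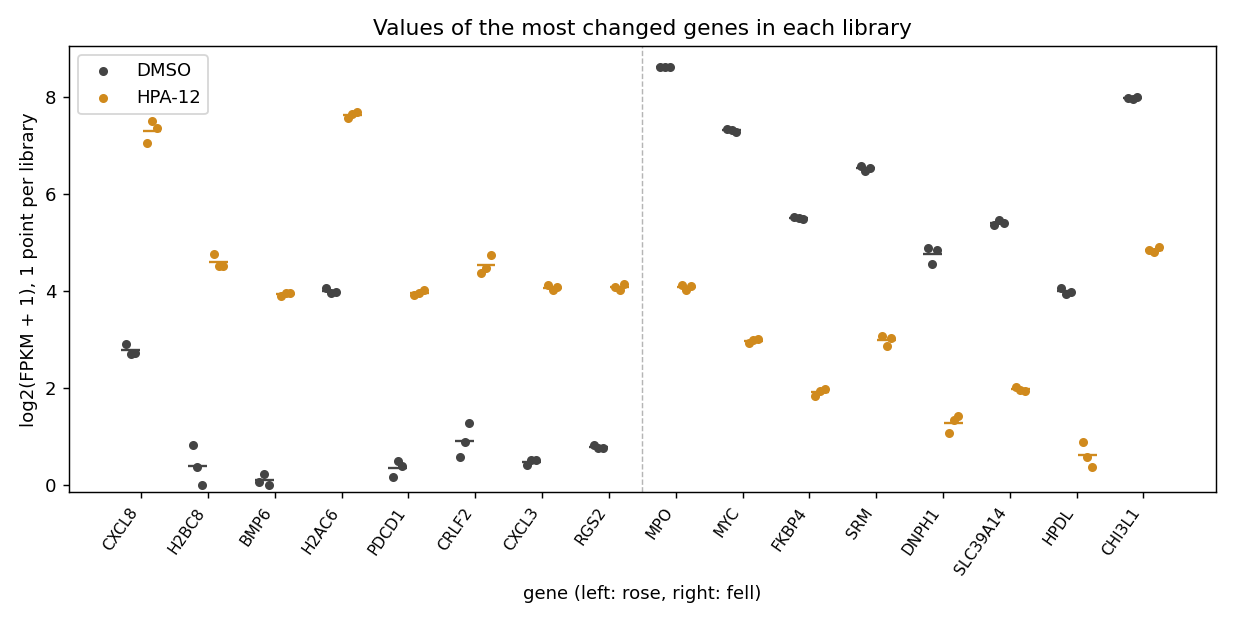
Log2 of FPKM plus 1 (vertical) in each DMSO (grey) and HPA-12 (orange) library for 8 of the genes that rose most and 8 of those that fell most, with short lines at the group means. Genes were chosen among those without overlap between the groups; H2AC6 and CXCL8 are highest with HPA-12 among those that rose, and MPO and CHI3L1 are highest with DMSO among those that fell.

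Counted in FPKM rather than in fold, nuclear genes that were lower with HPA-12 lost 49290 FPKM in all and those that were higher gained 33910. The largest losses were those of ACTB, the cytoskeletal actin, from 1442 ± 66.1 to 677 ± 47.2 FPKM, and of the chaperones HSP90AB1 (from 724 ± 21.1 to 127 ± 2.73 FPKM) and HSPA8. CLEC11A, a growth factor of the bone marrow, fell by 1.46, the glycolytic enzymes ENO1 and GAPDH by 1.86 and 0.73, and the calcium-binding chaperone CALR by 1.87 on the log2 scale. FTL, the light chain of ferritin, held by far the highest of these levels, 5138, 5152 and 5430.0 FPKM with DMSO and 4855, 4567 and 4835 FPKM with HPA-12, and its difference of -0.14 ± 0.08 did not pass (adjusted p = 0.1), though it did with the replicate number as a block (adjusted p = 0.011). Among the largest gains were those of FTH1, the heavy chain of ferritin (1.06 ± 0.07), of the ribosomal protein gene RPS27 (0.60 ± 0.08), of the elongation factor EEF1A1 (0.33 ± 0.06) and of the histone gene H2BC12 (1.80 ± 0.04). PSAP, the precursor of the saposins that help lysosomal enzymes break down sphingolipids, rose from 250.4 ± 7.11 to 509 ± 18.4 FPKM (1.02 ± 0.05), the lysosomal protease CTSB from 85.5 ± 0.896 to 315 ± 8.78 FPKM (1.87 ± 0.04), and TYROBP, a signalling adaptor of myeloid receptors, from 193 ± 7.0 to 407 ± 18.8 FPKM (1.07 ± 0.05).

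A small set of genes crossed between near silence and clear expression. From under 0.5 FPKM in every DMSO library to over 2 FPKM in every HPA-12 library went 35 genes, among them BMP6, PDCD1, CXCL3 and H1-4. TNFRSF11B, the decoy receptor osteoprotegerin, was one of them, with 0.0747, 0.0587 and 0 FPKM with DMSO and 6.31, 6.01 and 6.63 FPKM with HPA-12. TMEM253, a transmembrane protein, was another, with 0.173, 0.272 and 0.2 FPKM with DMSO and 7.56, 6.69 and 7.5 FPKM with HPA-12. The reverse held for 29 genes. GAL, the precursor of the neuropeptide galanin, had 7.99, 8.05 and 7.47 FPKM with DMSO and 0, 0.255 and 0.361 FPKM with HPA-12. WWC1, a scaffold of the Hippo pathway, went from 4.91, 4.65 and 4.82 FPKM to 0.263, 0.255 and 0.101 FPKM, and CGREF1, EEF1AKMT4, METAP1D and CMSS1 fell in the same way, by 1.95 to 2.20 log2 units. Of all tested genes, 488 were under 1 FPKM in every DMSO library and 324 in every HPA-12 library, so each of these was tested only because of its level in the other group.

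MYC works with MAX as a pair, MXD proteins compete for MAX, and many genes of growth carry the E-box that MYC and MAX bind. MYCN, a relative of MYC, fell as well, from 2.93, 3.45 and 3.47 FPKM to 0.292, 0.211 and 0.142 FPKM (-1.82 ± 0.09). Among their competitors MXD1 rose from 38, 40.4 and 37.8 FPKM to 110.0, 112 and 109.5 FPKM (1.49 ± 0.05), MXD3 by 0.98 and MXD4 by 0.41. MAX itself changed little (0.18 ± 0.07), and that call was lost with median-ratio scaling (0.05, adjusted p = 0.51), with the spread of all 12 libraries and in 5 of the 6 fits that leave out 1 library. TXNIP, an inhibitor of glucose uptake that is driven by a MAX-like partner, rose by 1.13. Of the 13 tested genes of this network, 8 rose and 4 fell.

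Of 17 tested genes of the small nucleolar ribonucleoproteins and of ribosomal RNA modification, 17 fell and 11 fell by more than 1 log2 unit, with a median of -1.46, while 10.2% of all tested genes fell by that much and their median was 0.09. NHP2, a core protein of the particles that make pseudouridine, stood at 91.5, 104 and 112 FPKM with DMSO and 14.8, 15.2 and 14.3 FPKM with HPA-12 (-2.70 ± 0.07). DKC1, the enzyme of the same particles, fell by 2.23, NOLC1, a nucleolar chaperone, by 2.16, and GAR1, another particle protein, by 2.09. Of 32 tested genes of RNA polymerases I and III and their factors, 22 fell (11 of them by more than 1) and 7 rose (none by more than 1). With the spread of all 12 libraries 15 fell and 2 rose. POLR1B, the second largest subunit of RNA polymerase I, went from 10.9, 12 and 11.2 FPKM to 2.2, 2.12 and 1.83 FPKM (-2.02 ± 0.08). The subunits did not move as one, since POLR3GL rose by 0.70 while its paralogue POLR3G fell by 0.81, the call of POLR3GL being lost with the spread of all 12 libraries (adjusted p = 0.063). The helicase DDX21, which works in the nucleolus, fell by 2.32, and of the 48 tested DEAD and DEAH box helicases 25 fell and 12 rose (7 with that spread).

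The promoter of SRM is shown because SRM was among the 12 most lowered genes and its promoter holds an E-box. The 300 bases from 250 before its transcription start (RefSeq, build GRCh38.p14, chr1:11059969-11060268, minus strand) hold 1 E-box, CACGTG, in capitals, whose first base lies at -199 from the start.

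SRM: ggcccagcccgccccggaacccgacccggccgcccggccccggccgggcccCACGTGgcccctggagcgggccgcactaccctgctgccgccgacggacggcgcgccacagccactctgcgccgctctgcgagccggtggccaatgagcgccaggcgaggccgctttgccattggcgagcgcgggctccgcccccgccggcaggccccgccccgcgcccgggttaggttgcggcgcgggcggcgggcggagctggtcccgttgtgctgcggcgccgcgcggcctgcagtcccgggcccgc

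The letters CACGTG, which read the same on both strands, occur in 7.43% of the 27305 promoters of this length in the table. They were found in 3 of the 14 promoters at hand for the small nucleolar ribonucleoprotein list, and in 10.7% of the promoters at hand for all genes tested. The share was 17.8% for genes that fell by more than 1 log2 unit and 8.14% for those that rose by that much. Other lists with many falls differed. Few matches were held by cytosolic tRNA synthetases (1 of 18 promoters), TRiC and prefoldin (none of 12) and HSP90 co-chaperones (none of 11). More were held by RNA polymerases I and III (7 of 26), initiation factors (8 of 32) and serine, one-carbon and proline genes (3 of 7). A part of the E-box in the falls was not tested. A match is a description of the letters and not a bound site.

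Most genes that charge transfer RNAs fell. Aminoacyl-tRNA synthetases load amino acids onto transfer RNAs. Of 22 tested cytosolic genes of this class 19 fell and 9 fell by more than 1 log2 unit (median -0.88). The lowest was VARS1, the valine enzyme, at 46.5, 45.2 and 45.5 FPKM with DMSO and 5.06, 4.85 and 5.55 FPKM with HPA-12 (-2.93 ± 0.06). FARSA and FARSB, the 2 chains of the phenylalanine enzyme, fell by 2.34 and 2.21, and AIMP2, a scaffold of the multisynthetase complex, by 2.28. CARS1 and AIMP1 rose by 0.17 and 0.37, and both calls were lost with the spread of all 12 libraries (adjusted p = 0.43 and 0.2), that of CARS1 also with median-ratio scaling and in 5 of the 6 fits that leave out 1 library. Of 15 mitochondrial synthetases 13 fell, 3 of them by more than 1 (median -0.75), with MARS2 at -1.56 ± 0.07. Of 71 mitochondrial ribosomal protein genes 64 fell and none rose (median -0.70), and MRPL24 fell furthest, by 2.32. With the spread of all 12 libraries 42 of the 71 fell and none rose.

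The proteins of the cytosolic ribosome itself followed another course. Of 80 tested genes 40 rose and 17 fell, none rose by more than 1 log2 unit, and the median was 0.13, close to that of all genes. With median-ratio scaling 19 rose and 24 fell and the median was -0.01, so no direction can be given for them as a class. RPS29 rose by 0.72 and RPL22L1, a paralogue of RPL22, fell by 1.44. Ribosomal protein genes have many near-identical pseudogenes, so single values are uncertain. Of 39 initiation factor genes 28 fell and 6 rose (3 with median-ratio scaling), and 7 fell by more than 1 (median -0.60). The largest fall was that of EIF4EBP1, which holds back cap-dependent initiation and is itself under mTOR control, from 262, 249 and 273 FPKM to 34.6, 38.1 and 32 FPKM (-2.87 ± 0.06). EIF2B3, part of the exchange factor of initiation, fell by 1.83, and EIF1 rose by 0.63.

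Genes of import into mitochondria mostly fell, and those of transport into the nucleus fell in part. Of 26 tested genes of mitochondrial protein import 24 fell and 12 fell by more than 1 log2 unit (median -0.99). TOMM40, the channel of the outer membrane, stood at 107, 99.3 and 105 FPKM with DMSO and 14.6, 14.7 and 13.5 FPKM with HPA-12 (-2.78 ± 0.05). TIMM13, CHCHD4 and TOMM22 fell by 1.76, 1.67 and 1.66, and TOMM7 rose by 0.57. Of 22 nuclear transport genes 14 fell and 4 rose, with RANBP1 (-2.44 ± 0.06) and RAN (-1.50 ± 0.05), the binding protein and the GTPase that set the direction of transport, lowest, and the export receptor XPO1 highest (0.86 ± 0.07).

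Genes of nucleotide synthesis fell, with few exceptions. Of 12 tested purine genes 10 fell, 7 of them by more than 1 log2 unit (median -1.07). PAICS, which catalyses 2 steps of the pathway, went from 27.8, 27.7 and 28 FPKM to 3.15, 3.95 and 3.63 FPKM (-2.66 ± 0.07), PFAS fell by 2.54 and IMPDH1 by 2.30. IMPDH2 was the exception: it rose from 2.37, 2.31 and 2.09 FPKM to 6.85, 6.62 and 7.42 FPKM (1.29 ± 0.08). Of 8 pyrimidine genes 6 fell and none rose, led by CTPS1, which makes CTP, at 13.9, 14.6 and 14.9 FPKM with DMSO and 1.1, 1.16 and 1.28 FPKM with HPA-12 (-2.83 ± 0.08), and by CAD (-2.10 ± 0.06), which starts the pathway. TYMS and CTPS2 differed by -0.08 ± 0.11 and 0.03 ± 0.08 and did not pass.

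Of 15 genes of serine, one-carbon and proline synthesis 12 fell, 9 of them by more than 1 log2 unit (median -1.04). ALDH18A1, the first enzyme of proline synthesis, went from 46.6, 46 and 47.2 FPKM to 4.71, 5.45 and 5.1 FPKM (-2.97 ± 0.06), PYCR3 fell by 2.48, and PSAT1, a step towards serine, by 1.87. SHMT1 rose by 0.57, a call lost with the spread of all 12 libraries (adjusted p = 0.096), and the mitochondrial folate enzyme MTHFD2 had a difference of 0.00 (interval -0.15 to 0.14). Of 12 tested genes of polyamine synthesis and control 7 fell and 4 rose. ODC1, the first enzyme, fell by 1.54 and EIF5A, the protein that carries a residue made from spermidine, by 2.21. SAT1, which acetylates polyamines for export and breakdown, rose from 32.3, 32.4 and 31 FPKM to 121, 126 and 135 FPKM (1.97 ± 0.05), and the oxidase SMOX by 1.02. Of 11 amino acid transporters 7 fell, led by SLC38A5 (-3.07 ± 0.09) and SLC7A1 (-2.15 ± 0.06). SLC7A11, which imports cystine, rose from 0.953, 1.04 and 1.01 FPKM to 12.2, 17.5 and 15.6 FPKM (3.00 ± 0.11).

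Cytosolic chaperones fell together. Of 18 tested heat shock genes 16 fell, 7 of them by more than 1 log2 unit, and 1 rose (median -0.92). HSPA8 (ENSG00000109971), the constitutive HSP70, stood at 655, 609 and 603 FPKM with DMSO and 81.8, 84.2 and 84.5 FPKM with HPA-12 (-2.88 ± 0.05). HSP90AB1 changed by -2.50 ± 0.05, the mitochondrial chaperonin HSPD1 by -2.42 ± 0.07, and HSPH1, which recharges HSP70, by -1.85 ± 0.06. The stress-induced copies HSPA1A and HSPA1B, which are nearly identical and so uncertain singly, fell by 1.06 and 0.65. HSF1, the factor that drives these genes, changed by -0.17 ± 0.06, a call lost with equal sums, with the spread of all 12 libraries and in 4 of the 6 fits that leave out 1 library, and the exception was the co-chaperone DNAJB6 (0.31 ± 0.05). Of 12 co-chaperones of HSP90 11 fell and none rose, with AHSA1 and NUDC at -1.67 ± 0.05 and -1.54 ± 0.04 after FKBP4. Of 14 genes of the TRiC chaperonin and of prefoldin, which fold actin and tubulin, 11 fell and 8 fell by more than 1 (median -1.25). CCT5 stood at 113, 109 and 108 FPKM with DMSO and 27, 27.4 and 29.5 FPKM with HPA-12 (-1.94 ± 0.05), and the prefoldin gene PFDN5 rose by 0.65. Of 10 tubulin genes, whose products TRiC folds, 8 fell and 1, TUBA1A, rose (2.50 ± 0.06).

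The promoter of HSPA8 is shown because it holds a pair of matches to the heat shock element, the site HSF1 binds, searched as GAANNTTCNNGAA on both strands. It covers chr11:123062087-123062386 on the minus strand (RefSeq, build GRCh38.p14), from 250 bases before the start to 50 after it. The matches are in capitals and begin at -230 and -55 from the start.

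HSPA8: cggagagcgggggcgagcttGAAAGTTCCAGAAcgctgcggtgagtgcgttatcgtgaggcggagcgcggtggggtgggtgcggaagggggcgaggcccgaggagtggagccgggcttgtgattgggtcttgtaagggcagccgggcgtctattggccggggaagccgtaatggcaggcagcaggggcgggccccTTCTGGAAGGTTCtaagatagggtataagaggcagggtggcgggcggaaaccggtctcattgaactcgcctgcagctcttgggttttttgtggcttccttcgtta

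These letters were found in 0.487% of all promoters of the table and in 4 of the 17 at hand for the heat shock list.

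Genes of the endoplasmic reticulum that the series title names, and their partners, did not move one way. HSPA5 (ENSG00000044574), the main chaperone of that compartment, stood at 87.1, 82 and 77.8 FPKM with DMSO and 26.3, 27.3 and 26.9 FPKM with HPA-12. All HPA-12 values were lower than any DMSO value, by a factor of 3.07 in the means (-1.58 ± 0.05, adjusted p = 1.6e-11). ATF6 (ENSG00000118217), the sensor that drives HSPA5, had 4.29, 4.53 and 4.19 FPKM with DMSO and 5.91, 6.64 and 6.17 FPKM with HPA-12. The rise, 0.44 ± 0.08, passed in these 6 libraries (adjusted p = 1.5e-04) but not with the spread taken over all 12 libraries of the study (adjusted p = 0.18). DDIT3 (ENSG00000175197), which encodes CHOP, had 1.77, 1.97 and 3.0 FPKM with DMSO and 2.28, 3.24 and 2.51 FPKM with HPA-12. Its groups overlapped and the difference did not pass (0.19 ± 0.14, interval -0.11 to 0.48, adjusted p = 0.21), and without DMSO replicate 3, the highest DMSO library, it was 0.35 with an adjusted p of 0.022.

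Other chaperones of the compartment fell with HSPA5. Of 22 tested genes of this list 13 fell, 6 of them by more than 1 log2 unit, and 3 rose, none by more than 1 (median -0.43). CALR went from 662, 574 and 585 FPKM to 170.3, 159.9 and 166 FPKM (-1.87 ± 0.06), SDF2L1, a partner of HSPA5, changed by -1.96 ± 0.13, and PDIA4, which forms disulfide bonds, by -1.48 ± 0.06. XBP1 (ENSG00000100219), the factor spliced by IRE1, stood at 63.1, 60.0 and 57.8 FPKM with DMSO and 23.6, 21.9 and 23.6 FPKM with HPA-12 (-1.35 ± 0.05). The splice form of XBP1 cannot be read from values per gene. Besides ATF6, the genes that rose were DNAJC3, an inhibitor of the kinase PERK (0.70 ± 0.07), and DNAJB9 (0.33 ± 0.08), the latter not with the spread of all 12 libraries (adjusted p = 0.12). The chaperone CANX, whose product pairs with that of CALR, differed by 0.01 ± 0.05 and the sensor ERN1 (IRE1) by 0.11 ± 0.08, and neither passed.

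The promoter of HSPA5 is shown for its endoplasmic reticulum stress response element, searched as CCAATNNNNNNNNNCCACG on both strands. It covers chr9:125241294-125241593 on the minus strand (RefSeq, build GRCh38.p14), and the match in capitals begins at -66 from the start.

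HSPA5: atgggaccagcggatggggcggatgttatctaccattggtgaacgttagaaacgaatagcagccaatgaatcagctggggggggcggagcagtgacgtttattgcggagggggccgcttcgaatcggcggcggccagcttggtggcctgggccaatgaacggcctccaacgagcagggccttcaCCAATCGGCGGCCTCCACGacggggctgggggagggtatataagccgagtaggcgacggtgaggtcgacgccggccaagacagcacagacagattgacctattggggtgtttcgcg

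This spacing of letters was found in 0.0806% of all promoters and in 6 of the 21 at hand for the list.

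The integrated stress response joins several kinases that phosphorylate the initiation factor eIF2, which favours translation of ATF4. ATF4 (ENSG00000128272) stood at 86.7, 86.3 and 89.3 FPKM with DMSO and 163, 161 and 160.0 FPKM with HPA-12, a rise of 0.87 ± 0.04 with groups far apart. The eIF2 phosphatase subunits PPP1R15A and PPP1R15B rose by 0.87 and 1.05, DDIT4, which curbs mTOR, by 0.73, and the kinase EIF2AK2, which binds double-stranded RNA, by 1.47. In contrast TRIB3, a pseudokinase induced by ATF4 and CHOP, fell from 6.92, 6.65 and 6.76 FPKM to 1.34, 1.19 and 1.38 FPKM (-1.76 ± 0.08), and CHAC1, which breaks down glutathione, from 2.13, 1.11 and 1.45 FPKM to 0.314, 0.162 and 0.305 FPKM (-1.01 ± 0.13), a call lost with the spread of all 12 libraries (adjusted p = 0.064). Of 14 tested genes of this response 6 rose and 5 fell, 42.9% and 35.7%, which is close to the shares of all genes, and 2 fell with the spread of all 12 libraries.

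**Figure D3:**
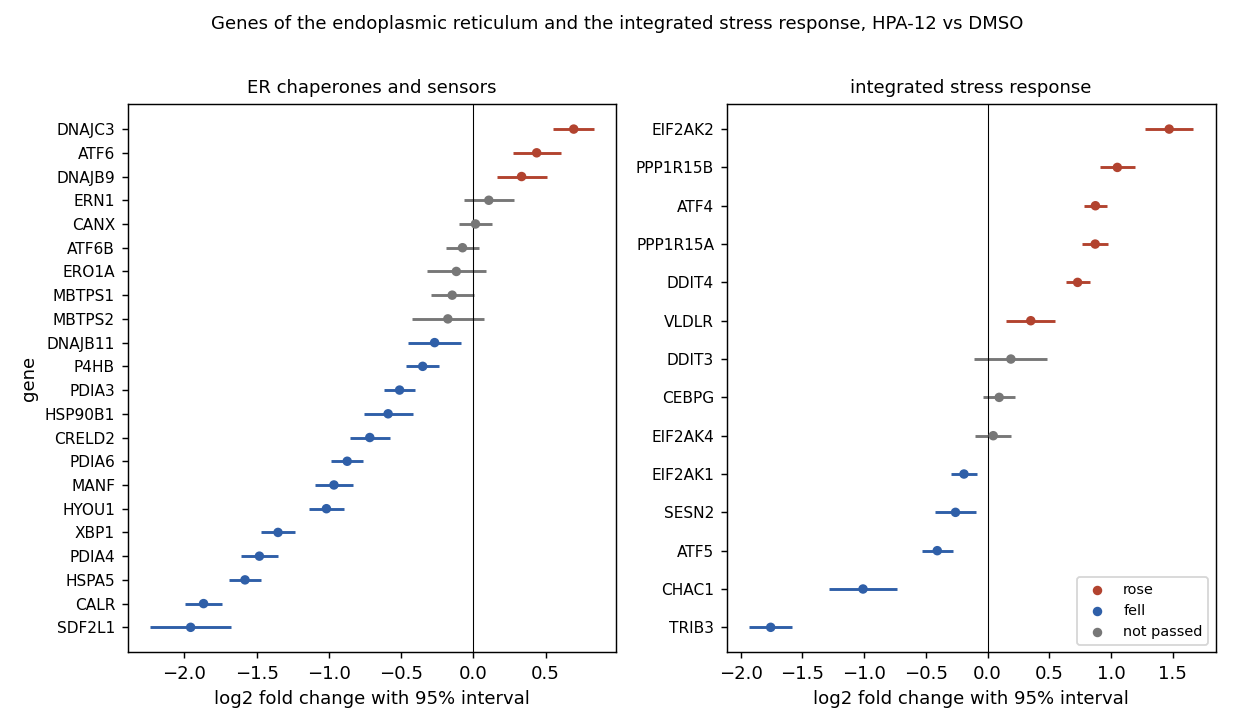
Log2 fold change with its 95% interval (horizontal) for the tested genes (vertical) of the endoplasmic reticulum list (left) and the integrated stress response list (right). SDF2L1, CALR and HSPA5 lie lowest on the left, and the interval of DDIT3 on the right crosses 0.

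Genes of sphingolipid metabolism, the pathway HPA-12 acts on, showed no common direction. CERT1 (ENSG00000113163) had 1.58, 1.66 and 1.57 FPKM with DMSO and 2.68, 3.36 and 3.24 FPKM with HPA-12, so every HPA-12 library lay above every DMSO library, at low levels (0.65 ± 0.09, adjusted p = 2.1e-05). Of 32 tested genes 12 rose and 10 fell, below the shares of all genes (44.0% and 36.0%). The groups did not overlap for 22 of the 32, against 81.4% of all genes tested. With the spread of all 12 libraries 6 rose and 5 fell. The median was 0.05, and -0.07 with median-ratio scaling. The largest rise was that of SAMD8, which makes ceramide phosphoethanolamine in the endoplasmic reticulum, from 1.35, 1.53 and 1.24 FPKM to 7.22, 8.24 and 8.07 FPKM (1.90 ± 0.09). ASAH1, the acid ceramidase of lysosomes, rose by 0.99, SPTLC1, a subunit of the enzyme that starts sphingolipid synthesis, by 0.43 (adjusted p = 0.064 with the spread of all 12 libraries), and its inhibitor ORMDL1 by 0.73.

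The falls of more than 1 log2 unit in this pathway were those of B4GALT5, which makes lactosylceramide, from 40.5, 46.4 and 41.8 FPKM to 18.7, 19.9 and 18 FPKM (-1.15 ± 0.06), and of the sphingosine kinase SPHK2 (-1.12 ± 0.09). SMPD2, a neutral sphingomyelinase, fell by 0.95, a call lost with the spread of all 12 libraries. UGCG, which diverts ceramide to glucosylceramide, stood at 64.2, 63.1 and 59.9 FPKM with DMSO and 59.6, 80.2 and 72.1 FPKM with HPA-12, with overlapping groups (0.17 ± 0.08, adjusted p = 0.082). DEGS1, which makes ceramide from dihydroceramide, had 41.5, 40.4 and 41.1 FPKM with DMSO and 38.9, 38.4 and 42.3 FPKM with HPA-12 (interval -0.15 to 0.07). VAPA, the membrane protein that tethers CERT to the endoplasmic reticulum, had 15.6, 15 and 14.2 and 13.9, 15.5 and 15.2 FPKM (interval -0.14 to 0.13). The sphingomyelin synthases SGMS1 and SGMS2, which take up the ceramide that CERT delivers, were too low to be tested, at 0.789, 0.803 and 0.993 FPKM for SGMS1 with DMSO and 0.526, 0.852 and 0.524 FPKM with HPA-12.

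FLT3 signals through the MAPK, STAT5 and PI3K pathways, each of which induces genes that feed back on it. FLT3 itself (ENSG00000122025) stood at 94.4, 94.4 and 94.8 FPKM with DMSO and 149, 159 and 158 FPKM with HPA-12 (0.71 ± 0.04, adjusted p = 7.7e-09). Of 16 tested MAPK feedback genes 10 fell, 8 of them by more than 1 log2 unit, and 5 rose, all by more than 1 (median -0.91). DUSP4, a phosphatase of ERK, went from 25.1, 26.8 and 26.1 FPKM to 2.46, 1.78 and 2.22 FPKM (-3.10 ± 0.08) and ETV5, a factor induced by ERK, from 7.54, 7.54 and 6.72 FPKM to 0.502, 0.273 and 0.42 FPKM (-2.57 ± 0.09). DUSP6, SPRY2 and ETV4 fell too, by 1.57, 1.84 and 1.52. The phosphatases that rose were DUSP16, from 2.28, 2.38 and 2.41 FPKM to 23, 24.7 and 24.7 FPKM (2.90 ± 0.07), DUSP1 (2.47 ± 0.09), DUSP8 (1.88 ± 0.09) and DUSP10 (1.40 ± 0.05). DUSP10 and DUSP16 are known to act mainly on JNK and p38 rather than on ERK.

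Of the 20 tested genes of the JAK-STAT list 10 fell and 8 rose, so the list had no common direction. CISH, a target of STAT5, fell from 11.9, 12.1 and 13 FPKM to 2.61, 2.21 and 2.41 FPKM (-1.97 ± 0.08), the kinase PIM1 from 41.8, 40.7 and 41.7 FPKM to 10.5, 9.75 and 10.9 FPKM (-1.90 ± 0.06), and SOCS1 and SOCS3 by 0.94 and 0.99. SOCS4 and SOCS6 rose, by 1.16 and 1.22, as did the kinases JAK1 (1.10 ± 0.06) and TYK2 (1.07 ± 0.05). Of 21 genes of the FOXO factors and PI3K feedback 13 rose, 6 of them by more than 1 log2 unit, and 6 fell. TSC22D3 (GILZ), a target of FOXO factors and of glucocorticoids, rose from 8.97, 8.21 and 8.28 FPKM to 92.7, 90.1 and 89.2 FPKM (3.27 ± 0.05). PIK3R1, the regulatory subunit of PI3K, FOXO3 and the PI3K inhibitor PIK3IP1 rose by 1.45, 1.39 and 1.38, and CITED2 fell by 1.77.

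Immediate early genes, whose transcription needs no new protein, were mostly higher. Of 19 tested genes 14 rose, 9 of them by more than 1 log2 unit against 8.09% of all genes, and 4 fell. Of the 19, 2 were under 1 FPKM in every DMSO library and were tested only because of their HPA-12 values. Of the 16 with a DMSO mean of at least 1 FPKM, 11 rose, 7 of them by more than 1, and 4 fell. Among all tested genes with such a mean, 6.46% rose by more than 1. FOS, a partner in the AP-1 dimer, stood at 7.32, 6.92 and 7.69 FPKM with DMSO and 63.5, 60.8 and 65 FPKM with HPA-12 (2.95 ± 0.06), and JUN, the other, at 6.11, 5.9 and 5.86 and 41, 37.1 and 37.2 FPKM (2.50 ± 0.06). NR4A2, an orphan nuclear receptor, rose by 2.54 and IER3 by 2.48. The 4 that fell were FOSL1, from 10.1, 9.68 and 9.53 FPKM to 0.767, 1.05 and 1.16 FPKM (-2.44 ± 0.09), EGR1 (-0.82 ± 0.09), FOSB (-0.37 ± 0.10) and SRF (-0.34 ± 0.05), so FOSL1 and FOSL2 (2.26 ± 0.05) moved in opposite directions. Of 10 Kruppel-like factors 9 rose and 1, KLF16, fell. KLF6 went from 5.75, 6.64 and 5.43 FPKM to 43.4, 44.2 and 40.3 FPKM (2.66 ± 0.07), and KLF10 and KLF7 changed by 1.66 ± 0.05 and 1.60 ± 0.08.

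Of 29 tested cyclins, cyclin-dependent kinases, their inhibitors and E2F and RB genes, 12 rose and 8 fell (7 rose with the spread of all 12 libraries). CDK4, the kinase of early G1, stood at 38.7, 38.4 and 41.1 FPKM with DMSO and 8.45, 9.01 and 8.29 FPKM with HPA-12 (-2.08 ± 0.06). CCNE1 (cyclin E1) fell by 1.89 and the phosphatase CDC25A by 1.64. CDKN1A (p21) rose from 4.47, 4.11 and 3.58 FPKM to 16.8, 17.6 and 17.5 FPKM (1.86 ± 0.08), CDKN2D by 1.60 and CDKN1C by 1.06. CCNB1, CCNA2 and CDK1 differed by -0.19 ± 0.07, -0.10 ± 0.08 and 0.52 ± 0.09, and of these CCNA2 did not pass, while the calls of CCNB1 and CDK1 were lost with the spread of all 12 libraries and that of CCNB1 also with equal sums. Of 24 kinesin genes, many of which move chromosomes, 16 rose and 4 fell (10 and 1 with that spread), none rose by more than 1, and KIF11 rose by 0.69. Of the 24, 4 were under 1 FPKM in every DMSO library. Of the 18 with a DMSO mean of at least 1 FPKM, 10 rose and 4 fell. The antiproliferative genes BTG1 and TOB1 rose by 1.92 and 1.44, while GADD45A and GADD45B differed by -0.16 ± 0.14 and -0.12 ± 0.07 and did not pass.

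Regulators of apoptosis moved in both directions on either side of the balance. Among survival genes BCL2A1 rose from 0.754, 1.55 and 1.75 FPKM to 14, 12.2 and 10.5 FPKM (2.51 ± 0.15), MCL1 by 1.01 and BIRC2 by 1.52, while BCL2 fell by 0.94 and BCL2L1 by 0.49. Among death genes BMF, which neutralises BCL2, rose from 18.9, 19.1 and 19.7 FPKM to 81, 75.1 and 75.3 FPKM (1.95 ± 0.05) and PMAIP1 by 0.49, while BIK fell by 1.47 and the death receptor TNFRSF10A by 1.33. BCL2L11 and BBC3 differed by -0.04 ± 0.06 and 0.12 ± 0.11 and did not pass. Of 24 tested genes 11 rose and 7 fell, 45.8% and 29.2% against 44.0% and 36.0% of all genes, so movement in both directions does not set this list apart.

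Granule proteins of neutrophils and their precursors fell beyond MPO. Of 15 tested genes 13 fell and none rose, and 7 fell by more than 1 log2 unit (median -0.89). CTSG, cathepsin G, stood at 157, 155 and 169 FPKM with DMSO and 22.9, 23.9 and 27.1 FPKM with HPA-12 (-2.66 ± 0.06), and LYZ, lysozyme, at 408, 399 and 389 and 81.6, 89.4 and 89.7 FPKM (-2.19 ± 0.05). MS4A3, a protein of granulocyte precursors, fell by 2.20 and the elastase ELANE by 2.13, but AZU1, whose gene lies beside those of ELANE and PRTN3, by only 0.50. The summed level of the list went from 3030 to 3265 FPKM in the DMSO libraries to 1240 to 1351 FPKM in the HPA-12 libraries.

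Few lineage factors changed by more than 1 log2 unit. SPI1 (PU.1) differed by 0.11 ± 0.05 and CEBPA by -0.21 ± 0.06, and both passed, but the difference of SPI1 was -0.02 with median-ratio scaling (adjusted p = 0.74) and passed in 1 of the 6 fits that leave out 1 library, and that of CEBPA did not pass with equal sums (adjusted p = 0.052). CEBPE, a factor of granulocyte maturation, fell by 1.32. HOXA9 and MEIS1, which the KMT2A fusion keeps active, rose by 0.47 and 0.52. Of 28 tested haematopoietic factors 11 rose and 10 fell, 39.3% and 35.7%, close to the 44.0% and 36.0% of all genes. Of the 28, 2 passed 1 log2 unit, IRF7 and CEBPE. At the surface PTPRC (CD45) rose from 5.05, 5.49 and 5.51 FPKM to 22.8, 30.1 and 25.3 FPKM (2.08 ± 0.09) and PLAUR by 1.77. Of 20 cytokine receptor genes 13 rose and 5 fell, with IL10RA, a chain of the interleukin 10 receptor, from 2.85, 3.01 and 3.36 FPKM to 35.1, 33.7 and 33.7 FPKM (3.11 ± 0.07), and CSF1R, the receptor of macrophage growth factor, up by 1.07. CSF3R, the receptor of granulocyte growth factor, fell by 0.97.

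Of 4 tested markers of red cells 3 rose and none fell, against 44.0% and 36.0% of all genes. By more than 1 log2 unit 1 rose, and 2 with a pseudocount of 0.1 or with equal sums. Of the 4, 1 was under 1 FPKM in every DMSO library and was tested only because of its HPA-12 values. HBB, the beta globin, stood at 68, 67.3 and 74.7 FPKM with DMSO and 202, 197 and 193 FPKM with HPA-12 (1.48 ± 0.05). The summed level of the 6 erythroid markers was 75.07 to 83.04 FPKM with DMSO and 207.0 to 213.3 FPKM with HPA-12, most of it HBB. HBA1 had 0.45, 0.176 and 0.868 FPKM with DMSO and 1.25, 1.49 and 1.41 FPKM with HPA-12, and HBA2 was too low to be tested. The part of any other cell type in these values was not tested.

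Chemokines and cytokines moved both ways. CXCL1, CXCL2, CXCL3 and CXCL8, which share the receptor CXCR2, all rose, CXCL2 from 1.57, 1.37 and 1.81 FPKM to 15.1, 17 and 13.8 FPKM (2.66 ± 0.09) and CXCL1 by 1.28. TNF, the inflammatory cytokine, fell from 17.4, 17.1 and 16.1 FPKM to 1.58, 1.43 and 1.4 FPKM (-2.85 ± 0.07). CCL2, which attracts monocytes, had 2.94, 2.78 and 2.81 FPKM with DMSO and 0.0416, 0.0429 and 0 FPKM with HPA-12, IL1B fell by 1.63 and CXCL10 by 1.23. Of 18 tested genes 10 rose and 8 fell, and 7 rose and 4 fell by more than 1 log2 unit. Of the 18, 3 were under 1 FPKM in every DMSO library and 2 in every HPA-12 library. These were tested only because of their level in the other group. Of the 15 with a DMSO mean of at least 1 FPKM, 7 rose and 8 fell, 4 and 4 of them by more than 1.

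The promoter of CXCL3 holds a site of NF-kB, the factor that drives many inflammatory genes, searched as GGGANTTTCC on both strands. It covers chr4:74038640-74038939 on the minus strand (RefSeq, build GRCh38.p14), and the match in capitals begins at -79 from the start.

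CXCL3: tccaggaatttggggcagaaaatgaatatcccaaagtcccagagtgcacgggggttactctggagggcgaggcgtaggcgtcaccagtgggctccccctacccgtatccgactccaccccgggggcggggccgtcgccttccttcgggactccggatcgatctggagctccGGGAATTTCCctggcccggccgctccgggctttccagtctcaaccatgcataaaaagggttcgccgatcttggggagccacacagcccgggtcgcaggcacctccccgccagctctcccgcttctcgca

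The letters were found in 0.579% of all promoters. The same search found none in the promoter at hand for CXCL8, which says only that these exact letters are not in its window.

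Surface proteins that regulate immune cells changed in both directions. CD86, a costimulatory ligand of T cells, rose from 2.73, 2.72 and 2.87 FPKM to 27.3, 28.4 and 29.8 FPKM (2.97 ± 0.06), and HAVCR2 (TIM-3) and LILRB3 by 1.77 and 1.77. CD276 (B7-H3) fell from 9.12, 8.53 and 9.3 FPKM to 0.572, 0.741 and 0.599 FPKM (-2.61 ± 0.08) and LGALS9 (galectin-9) by 1.47. CD274 (PD-L1), the ligand of PDCD1, was at 0.107, 0.0717 and 0.194 FPKM with DMSO and 0.137, 0.141 and 0.0762 FPKM with HPA-12 and was not tested. The summed level of the 5 T cell markers was 1.382 to 1.82 FPKM with DMSO and 3.319 to 4.489 FPKM with HPA-12. CD3D, CD3E and CD3G were under 1 FPKM in every library, but 4 of the 5 markers had a higher mean with HPA-12. The 1 T cell marker that was tested rose by 0.94 without overlap between the groups. Of 14 class I presentation genes 5 rose and 5 fell (3 fell with the spread of all 12 libraries), with B2M and HLA-E up by 0.70 and 0.86 and the immunoproteasome subunit PSMB8 down by 1.26. Of 12 class II genes 6 rose and 3 fell (3 and 1 with that spread), with HLA-DMA up by 1.18 and RFXANK down by 1.02, and CD74 differed by 0.10 ± 0.05 and did not pass, though it did with the replicate number as a block.

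Interferon-stimulated genes, which restrict viruses, were mostly higher. Of 33 tested genes 29 rose and 3 fell, and 15 rose by more than 1 log2 unit, 45.5% of the list against 8.09% of all genes, and 23 with a pseudocount of 0.1 or with equal sums (median 0.97). Their levels were low: 11 of them were under 1 FPKM in every DMSO library and were tested only because of their HPA-12 values. Of the 21 with a DMSO mean of at least 1 FPKM, 17 rose, 9 of them by more than 1, and 3 fell. STAT2, part of the factor that drives these genes, stood at 19.5, 19.9 and 19 FPKM with DMSO and 77.5, 73.8 and 76.9 FPKM with HPA-12 (1.91 ± 0.05), and IRF9, its partner, rose by 0.93. IFIT2 rose from 0.477, 0.596 and 0.587 FPKM to 5.54, 6.42 and 5.84 FPKM (2.16 ± 0.09), and ISG20 and OAS2 by 1.97 and 1.83. The 3 that fell were IFITM1, from 19.4, 19.8 and 20.6 FPKM to 11.5, 9.66 and 12 FPKM (-0.80 ± 0.07), IFITM2 (-0.79 ± 0.08) and IFI35 (-0.28 ± 0.08), and the calls of IFITM2 and IFI35 were lost with the spread of all 12 libraries.

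The largest common rise was that of replication-dependent histones, whose genes lie in clusters and whose messages end in a stem loop in place of a poly(A) tail. The table has 53 such genes, of which 28 were tested, and of these 27 rose and 26 rose by more than 1 log2 unit (median 2.35). Since 13 of the 28 were under 1 FPKM in every DMSO library, the test took many of them for their HPA-12 level. Of the 13 with a DMSO mean of at least 1 FPKM 12 rose by more than 1, and of the 25 that were too low to be tested 22 had a higher mean with HPA-12. The summed level of the 53 genes was 172.5 to 174.2 FPKM in the DMSO libraries and 1020 to 1023 FPKM in the HPA-12 libraries.

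Single histone genes spread widely. H2AC6 (ENSG00000180573) stood at 15.7, 14.7 and 14.7 FPKM with DMSO and 188, 201 and 205 FPKM with HPA-12 (3.63 ± 0.05, adjusted p = 2.6e-14), H2BC12 at 116, 119 and 121 and 419, 410.2 and 416 FPKM, and H4C4 at 1.55, 0.366 and 0.899 and 33.5, 36.4 and 29.1 FPKM. H2AC20 was the one tested gene that did not pass (-0.16 ± 0.22). These genes have near-identical copies, so the values of single ones are uncertain. Histone genes that are expressed outside S phase moved both ways: H2AX fell from 126, 105 and 111 FPKM to 52.9, 50.6 and 47.7 FPKM (-1.16 ± 0.06) and H2AZ1 by 0.95, while the linker histone H1-10 rose by 1.03. SLBP, the protein that binds the stem loop of histone messages, fell by 0.66.

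The promoter of H2AC6 is shown as one of this group. It covers chr6:26123922-26124221 on the plus strand (RefSeq, build GRCh38.p14), and its TATA box, searched as TATAAA on both strands and set in capitals, begins at -31 from the start.

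H2AC6: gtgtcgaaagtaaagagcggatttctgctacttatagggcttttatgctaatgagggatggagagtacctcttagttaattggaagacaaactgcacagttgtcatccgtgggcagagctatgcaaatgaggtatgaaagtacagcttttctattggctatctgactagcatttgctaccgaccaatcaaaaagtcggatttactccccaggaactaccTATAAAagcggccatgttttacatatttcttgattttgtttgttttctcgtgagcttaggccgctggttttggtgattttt

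Of the 26 promoters at hand for the tested histone genes 19 hold TATAAA and 22 hold CCAAT, against 12% and 35.7% of all promoters. Both motifs can lie in the same window, and the CCAAT letters also form the start of the endoplasmic reticulum element above.

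Chromatin enzymes rose more often than they fell, as did the tested genes as a whole (44.0% and 36.0%). Of 25 histone lysine methyltransferases 15 rose and 4 fell, 60% and 16%. The counts were 11 and 2 with the spread of all 12 libraries and 12 and 5 with median-ratio scaling. KMT2E, ASH1L and SETD2 rose by 1.32, 1.15 and 1.15, while EZH2 differed by 0.03 ± 0.08 and did not pass. Of 19 demethylases 14 rose and 2 fell (9 rose with median-ratio scaling and 9 with the spread of all 12 libraries), with JMJD1C up by 1.34 and the falls those of KDM1A and KDM1B, by 0.56 and 0.59. Of 289 tested zinc finger genes of the ZNF series 159 rose and 58 fell (median 0.27). Few changed by more than 1 log2 unit, 16 up (5.54%) and 3 down (1.04%), below the 8.09% and 10.2% of all genes. With that spread 93 rose and 24 fell, and with equal sums 50 rose by more than 1.

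Lipid, iron and haem genes held a few strong changes. FASN, the fatty acid synthase, went from 127, 127 and 125 FPKM to 28.1, 24.4 and 26 FPKM (-2.23 ± 0.05), while ABCA1, which exports cholesterol, rose from 0.535, 0.702 and 0.76 FPKM to 5.93, 7.47 and 6.19 FPKM (2.17 ± 0.10). Of 22 cholesterol genes 8 rose and 7 fell, with SQLE down by 1.07 and SREBF2, a factor that drives cholesterol synthesis genes, up by 0.62. TFRC, the transferrin receptor, fell from 30.0, 32.9 and 31.4 FPKM to 8.0, 8.31 and 8.1 FPKM (-1.83 ± 0.06), and the haem enzyme CPOX by 1.31. HMOX1, which breaks haem down, rose from 10.9, 10.8 and 10.7 FPKM to 28.3, 25.8 and 27.9 FPKM (1.26 ± 0.06), and its relative HMOX2 fell by 1.41.

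Among the large machines of the cell, proteasome genes fell in 28 of 35 cases and rose in 1, PSMA1 (0.74 ± 0.09), and complex I genes fell in 19 of 33 and rose in 3. Of 32 splicing factors of the hnRNP and SR families 21 fell, 10 of them by more than 1 log2 unit, with HNRNPAB lowest (-1.75 ± 0.05), and 8 rose (5 with median-ratio scaling). Of 9 tested subunits of the RNA exosome, which degrades RNA, EXOSC5 fell by 2.77 and EXOSC2 by 1.11, while 4 did not pass. Of 14 subunits of the V-ATPase, the proton pump of lysosomes, 7 rose and 2 fell, none by more than 1 (3 and none with the spread of all 12 libraries). Of 35 mitochondrial carriers 20 fell and 9 rose (4 rose with that spread), with the ornithine carrier SLC25A15 lowest (-2.26 ± 0.07) and the carnitine carrier SLC25A20 highest (1.33 ± 0.06). Of 45 Rab GTPases 18 rose and 18 fell (10 and 10 with that spread), and RAB44 (-2.70 ± 0.09) and RAB20 (1.75 ± 0.05) lay at the ends. The medians of the lists of both MHC classes, cholesterol, apoptosis and haematopoietic factors lay near 0 and turned negative with median-ratio scaling. The plot of all lists shows their order.

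**Figure D4:**
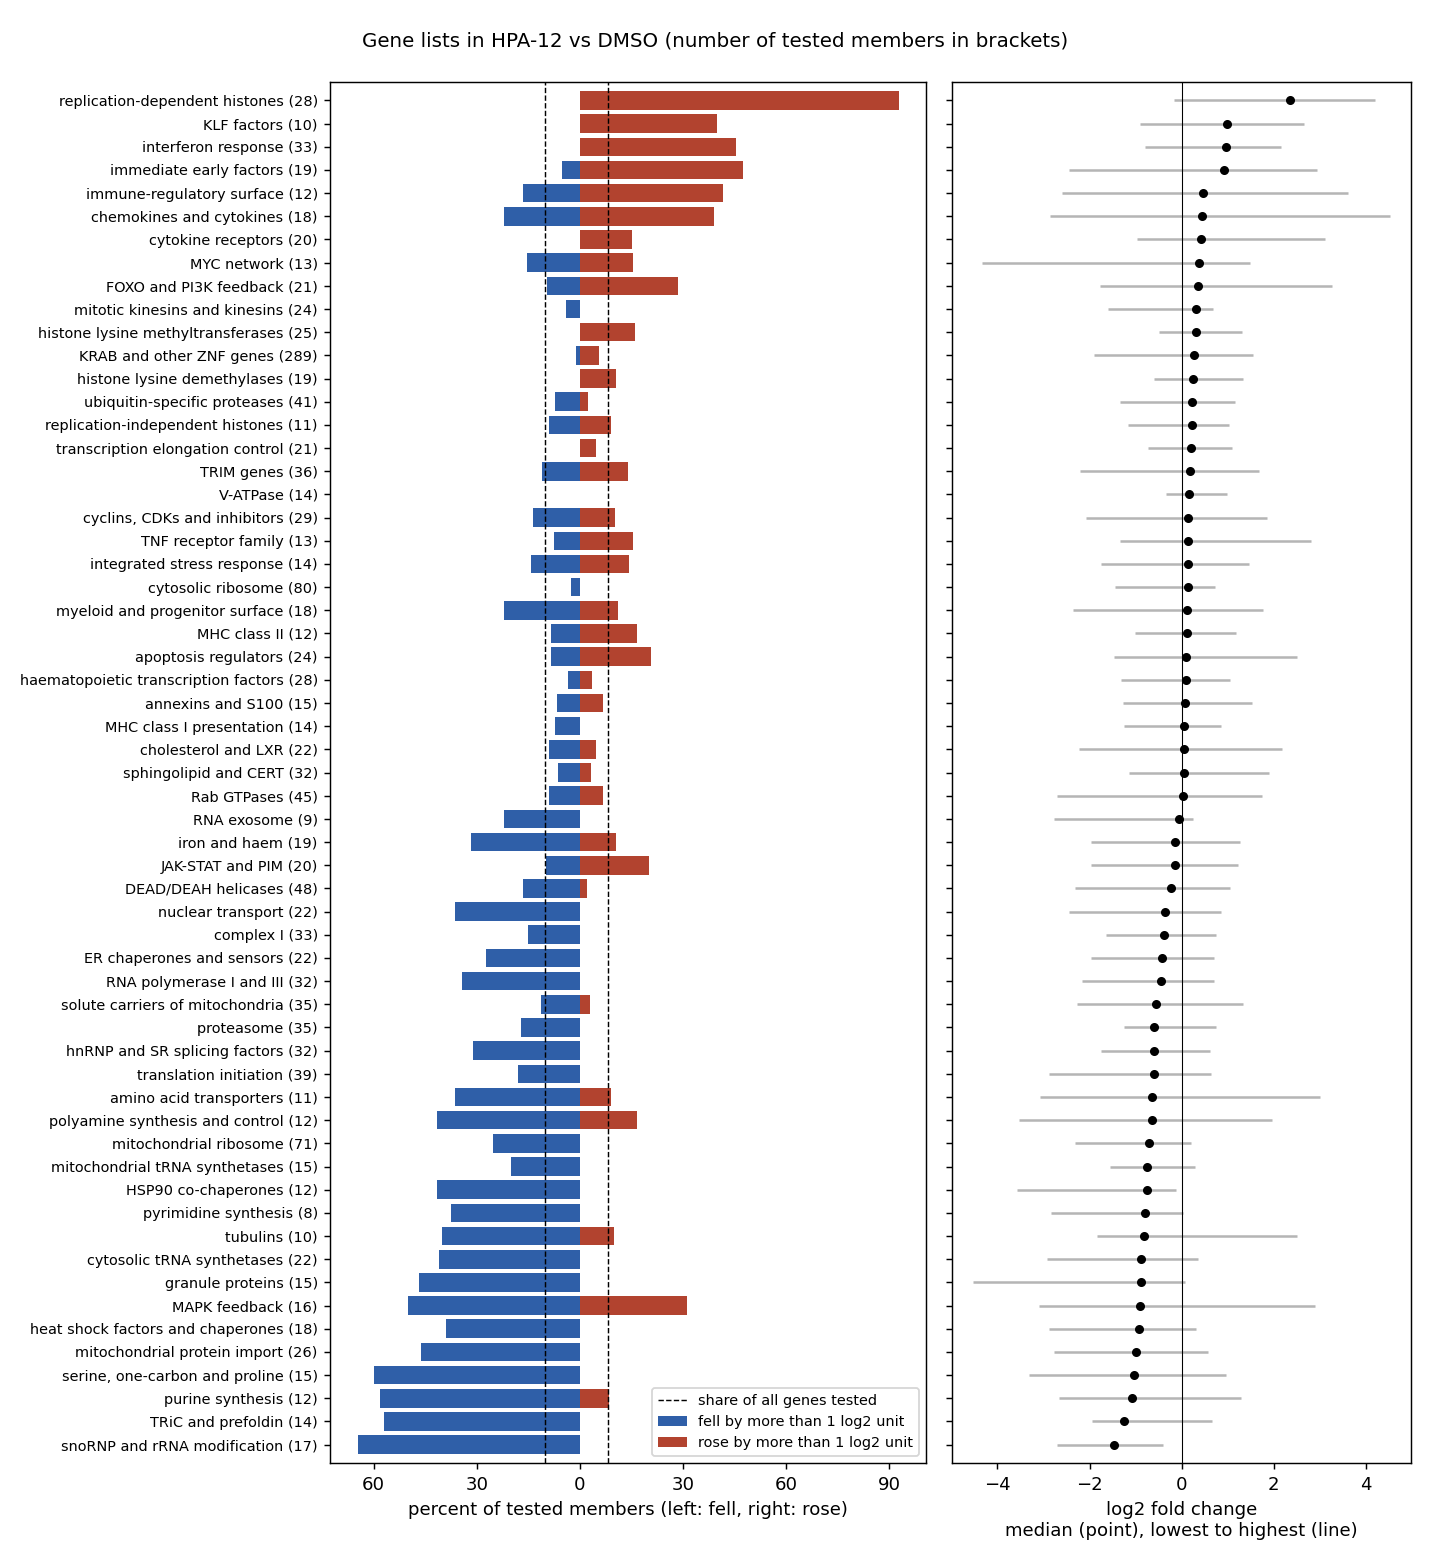
Left, percent of the tested members of each list that fell (blue) or rose (red) by more than 1 log2 unit, with dashed lines at the shares of all genes tested (10.2% and 8.09%); right, the median log2 fold change (point) and its range (line). Lists are ordered by median, from the small nucleolar ribonucleoproteins (-1.46) at the bottom to the replication-dependent histones (2.35) at the top.

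Against this background, genes whose level can be bounded near no change were a minority. The 95% interval lay within 0.25 log2 units of 0 for 934 genes (8.97%) and within 0.5 for 3665 (35.2%). The tightest of those above 20 FPKM was ARCN1, a subunit of the COPI coat of Golgi vesicles, at 68, 70.7 and 67 FPKM with DMSO and 67.1, 69.7 and 69.3 FPKM with HPA-12 (interval -0.09 to 0.10). HADHA, an enzyme of fatty acid oxidation, had an interval of -0.09 to 0.11, the initiation factor EIF4B of -0.10 to 0.11, the chaperone FKBP8 of -0.10 to 0.11, the lysophospholipase PNPLA6 of -0.11 to 0.11 and the oxysterol receptor NR1H2 of -0.11 to 0.11. All 6 had overlapping groups. By median-ratio scaling, which lowers every HPA-12 value relative to DMSO, ARCN1 differed by -0.13 with an adjusted p of 0.040, so these statements hold for FPKM as deposited.

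Genes that changed also differed in size. For 99.9% of the tested genes GENCODE release 29 gave a gene model, whose span runs from first to last base, introns included. The median span was 17.2 kb for genes that fell by more than 1 log2 unit, 30.2 kb for genes that rose by more than 1, and 29.4 kb for all tested. Of the 2601 genes with the shortest spans, up to 12.2 kb, 16.4% fell by more than 1, and of the 2601 with the longest, from 65.8 kb, 5.54% did. The shares that rose were 8.92% and 9.42%, so the gradient lay in the falls. The median log2 fold change went from -0.10 in the shortest of these 4 groups over 0.00 and 0.14 to 0.25 in the longest. Single-exon genes made up 4.52% of those that rose, 2.26% of those that fell and 1.93% of all tested. Short genes also differ in level and family from long ones, and their part in the gradient was not tested.

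**Figure D5:**
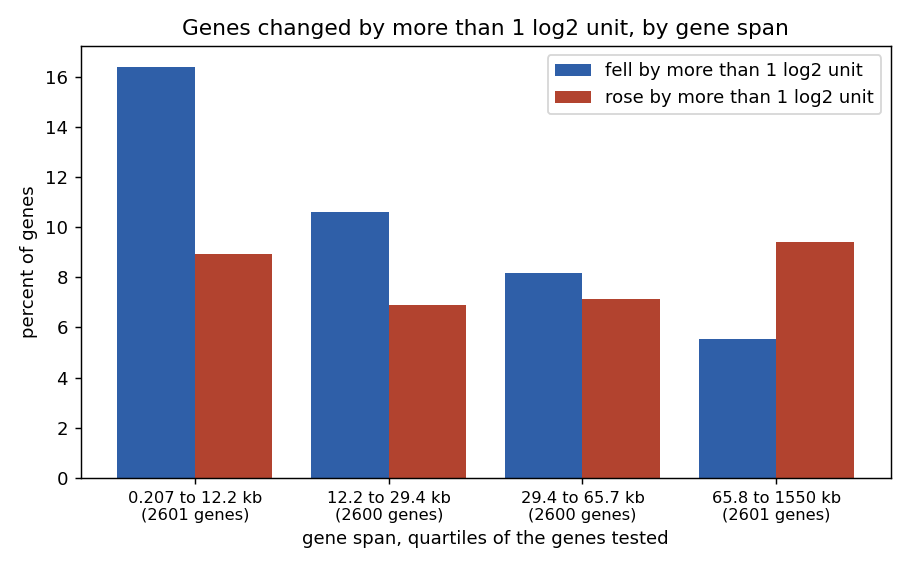
Percent of genes (vertical) that fell (blue) or rose (red) by more than 1 log2 unit in 4 equal groups of the tested genes by gene span in kb (horizontal). The blue bars go down from 16.4% to 5.54% and the red bars lie between 6.88% and 9.42%.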

How the data were processed

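RNA of 6 MV-4-11 libraries, 3 with DMSO and 3 with HPA-12, was compared. The deposited table holds FPKM as the authors made them, per the file headers. No aligner, counting method, genome build or annotation is named in the labels or the header. All value columns were matched to samples by name, and 20011 of 20036 Ensembl identifiers had a symbol.

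Genes reaching 1 FPKM in 3 or more of the 6 libraries were tested. FPKM were raised by 1, put on a log2 scale and fitted by limma 3.58.1 (R 4.3.3) with empirical Bayes moderation and a mean-variance trend; tests were two-sided, adjusted by Benjamini-Hochberg, with a threshold of 0.05. "Rose", "fell" and "changed" mean past this threshold. Fold changes are log2 differences ± standard error, and they understate changes of low genes. Values with ± beside FPKM are mean and SD over 3 libraries. The fit was run on simulated data in which 200 of 10413 genes changed. In the real data 8326 genes were called, so that run does not check the fit for a change of this extent.

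The members and the 44 lists, 16 symbol families and 7 marker lists were chosen with earlier results of these data known, so lists are described by counts and medians with no test of the list. Named are the 12 most raised and most lowered genes averaging 5 FPKM with no overlap, the 8 largest gains and losses in FPKM, 6 genes each way between under 0.5 and over 2 FPKM, the genes of the series title with XBP1, ATF4, CERT1 and FLT3, 6 genes over 20 FPKM with the narrowest intervals near 0, and the most changed members of each list. Other members were named to account for a list or after their values were seen. A few genes that these rules name are not reported here. Promoters were matched by symbol in a RefSeq table. Gene spans came from GENCODE release 29.

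Alternatives were another pseudocount, other filters, 4 scalings, robust moderation, a fit with all 12 libraries, a test against 1 log2 unit, a replicate block and leaving out each library.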

Additional observations from a re-analysis of the deposited data

How the results depend on the processing

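Of the named genes with a call, SPI1 alone changed sign, to -0.024 with median-ratio scaling, where it did not pass; that scaling also turned the excess of rises (4580 against 3746) into one of falls (3896 against 4367). The number of genes that rose was 2679 among the 6369 genes averaging 5 FPKM or more, where fewer genes were tested. The number that rose by more than 1 log2 unit was 1402 with a pseudocount of 0.1, 1478 with equal sums, 496 among genes of at least 5 FPKM and 438 in the test against 1 log2 unit. For equal sums the values were scaled up, from sums of 241900 to 260300 FPKM per library, before 1 was added. That setting thus also lowered the weight of the pseudocount and is not a change of scaling alone. Its part in these shifts was not tested. Leaving out 1 library at a time gave 4361 to 4687 genes that rose and 3567 to 3713 that fell, 804 to 912 that rose and 1057 to 1076 that fell by more than 1. With the spread of all 12 libraries 3061 rose and 2563 fell. With the replicate number as a block 4599 rose and 3742 fell, 842 and 1061 of them by more than 1. Same-numbered libraries correlated at -0.01, 0.08 and 0.02 in their deviations from the group means. Libraries of unlike number correlated at -0.11 to 0.09, so these values cannot tell whether the numbers pair the libraries. The difference of FTL passed under 4 alternatives, among them the replicate block, under which CD74 passed too; no named gene lost its call under the block. The fit of all 12 libraries lost the calls of 21 genes named in the text or by the rules, and leaving out 1 library lost 2 to 5; the cause was not tested. DDIT3 passed without DMSO replicate 3 (0.35, adjusted p = 0.022).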
